A study of Mus musculus with 2 samples.

Results

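The cells described here were cells of the embryonic mouse face that carried transcripts of both Sox9 and Col9a1, 583 of the 14860 cell barcodes of the study. A cell was included when at most 10% of its unique molecular identifiers (UMIs, each standing for 1 captured RNA molecule) came from mitochondrial genes, Epcam was at 1 UMI or less, Cdh5 and Kdr together were at 1 UMI or less, Sox10 was at 0, Sox9 was at 3 UMIs or more and Col9a1 was at 1 UMI or more. There were 2 single-cell RNA sequencing libraries, both of the lambdoid junction at embryonic day 11.5, the region where the nasal and maxillary prominences meet. The 1 library was from wild-type C57BL/6J embryos and the other from embryos labelled C57BL/6J with the genotype Crect; ROSA26-lacZ, called Crect lacZ below, in which Crect is an ectodermal Cre transgene and lacZ a reporter at the ROSA26 locus. Each pooled the trypsin-treated tissue of 4 to 5 embryos. Each genotype thus had 1 library, no difference between genotypes has a replicate check, and genotype, pool, dissection and library preparation cannot be told apart. The selected cells numbered 530 in the Crect lacZ library and 53 in the wild-type library. They were compared with the mesenchymal cells of the same library that had no Sox9 UMI, 2926 and 4633 cells, defined by Prrx1, Prrx2 and Twist1 summing to 3 UMIs or more and Epcam at 1 or less.

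Sox9 is a transcription factor of the SOX family that is required for neural crest and mesodermal mesenchyme to enter the cartilage lineage. With its partners Sox5 and Sox6 it is known to switch on the genes of the cartilage fibrils: Col2a1 encodes the type II collagen that forms the fibril, and Col9a1, Col9a2 and Col9a3 encode the chains of type IX collagen that coats it. In the face the first condensations of this kind prefigure the nasal capsule, whose matrix genes such as Acan and Matn1 are turned on later.

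Most of the selection was made by Sox9 and Col9a1. In the Crect lacZ library 5697 cells passed the limits on mitochondrial share, Epcam, Cdh5, Kdr and Sox10, 893 of them had 3 or more Sox9 UMIs, and 530 of those also had Col9a1. In the wild-type library the same steps left 6661, 210 and 53 cells. The selected cells were 7.93% of the Crect lacZ cells within the mitochondrial limit (exact 95% Clopper-Pearson interval 7.29 to 8.60) and 0.670% of the wild-type cells (0.502 to 0.876), intervals that cover counting error only. The libraries differed in depth, with medians of 17293 UMIs per barcode in Crect lacZ and 14055.5 in wild-type. When every cell was thinned to 8000 UMIs, and shallower cells left out, the shares were 4.40% (269 of 6118 cells) and 0.154% (11 of 7128 cells). Of the selected cells, 521 in Crect lacZ and 49 in wild-type also had 3 or more UMIs of the mesenchyme genes Prrx1, Prrx2 and Twist1. The rule did not require these genes of the selected cells. Of the 76 barcode sequences that the libraries share, 5 were selected in Crect lacZ and 0 in wild-type.

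Sox9 and Col9a1 chose the cells, so their levels are a description. Selected Crect lacZ cells held a median of 6 Sox9 UMIs (quartiles 4 and 11, highest 41) and a median of 2 Col9a1 UMIs (quartiles 1 and 4, highest 25). Selected wild-type cells held a median of 3 Sox9 UMIs (quartiles 3 and 5, highest 9) and of 1 Col9a1 UMI (quartiles 1 and 2, highest 9). Most wild-type cells thus stood at the edge of the rule, and none had 10 Sox9 UMIs, against 171 Crect lacZ cells. Just inside the Sox9 limit, at 3 UMIs, Col2a1 stood at 96.8 CPM (UMIs of a gene scaled to a total of 1000000) in 96 Crect lacZ cells and at 46.8 CPM in 33 wild-type cells. Just outside it, at 2 Sox9 UMIs with Col9a1 present, Col2a1 was at 60.7 CPM in 136 Crect lacZ cells and 38.6 CPM in 70 wild-type cells. With Col9a1 at 1 UMI, Col2a1 was at 87.7 CPM (179 Crect lacZ cells) and 43.6 CPM (37 wild-type cells), and with Col9a1 at 0 it was at 46.3 CPM (363 cells) and 30.3 CPM (157 cells).

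The label of chondrogenic mesenchyme was set beside 4 cartilage genes that the rule did not use, counted together in each cell. Other cartilage markers, such as Col11a1, Col11a2, Acan, Matn1, Hapln1 and Sox5, were not part of this count. The 4 are among the genes called higher below, while 17 of 21 cartilage matrix genes tested were not called. Summing Col2a1, Col9a2, Col9a3 and Sox6 in each cell after thinning to 8000 UMIs, 33.1% of selected Crect lacZ cells (165 of 498, exact 95% interval 29.0 to 37.5) had 4 or more UMIs, against 0.224% of Sox9-negative cells of that library (6 of 2676). In wild-type, 2.0% of selected cells (1 of 50, 0.0506 to 10.6) and 0.145% of Sox9-negative cells (6 of 4148) did. No UMI of the 4 genes was found in 21.5% of selected Crect lacZ cells, against 67.3% of Sox9-negative cells, and in 52% of selected wild-type cells (26 of 50), against 73.4%. At 8000 UMIs both sets thus held a UMI of these genes more often than their comparison cells. Cells with several were frequent in Crect lacZ and 1 of 50 in wild-type. Thinned to 5000 UMIs, 71.8% of selected and 22.8% of Sox9-negative Crect lacZ cells held one. In wild-type 28.3% of selected cells did (15 of 53, 16.8 to 42.3) and 0 had 4 or more. That interval includes the 19.4% of Sox9-negative wild-type cells, so the wild-type difference was not clear at this depth. The sets are called selected cells below, after their rule. In endothelial cells, which should lack these genes, 1.98% of Crect lacZ (2 of 101) and 0.568% of wild-type cells (1 of 176) had a Col9a1 UMI at the same 8000 UMIs, and 4.95% and 2.84% had one of Col2a1, with medians of 34540 and 24886 UMIs before thinning. The shares in Sox9-negative mesenchyme, 13.0% and 13.2% for Col9a1, were above these.

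The level of Sox9 and the presence of Col9a1 went together in the Crect lacZ library. The cells counted here were within the limits on Epcam, Cdh5, Kdr and Sox10 after thinning to 8000 UMIs. They also had at least 1 UMI of Prrx1, Prrx2 or Twist1. A Col9a1 UMI was present in 13.1% of Crect lacZ cells without Sox9 (469 of 3584). It was present in 15.6% of cells with 1 Sox9 UMI, 24.3% with 2, 48.8% with 3 or 4, 64.6% with 5 to 7 and 81.9% with 8 or more (68 of 83). In wild-type cells the shares were 13.3% without Sox9 (642 of 4826), 14.3% at 1, 13.0% at 2, 19.1% at 3 or 4 (9 of 47, 9.15 to 33.3) and 14.3% at 5 to 7 (1 of 7). The Crect lacZ share of Col9a1 thus climbed with Sox9, while the wild-type intervals at each Sox9 level held the share seen without Sox9. At 3 or more Sox9 UMIs, 47 and 7 wild-type cells were too few to tell a level share from a climbing one. Wild-type Col2a1 shares went from 21.0% without Sox9 to 34.0% at 3 or 4 (20.9 to 49.3) and 42.9% at 5 to 7 (3 of 7, 9.90 to 81.6). Col9a2 went from 2.37% without Sox9 to 44.6% at 8 or more in Crect lacZ, and in wild-type it was 2.36% without Sox9 and 4.26% at 3 or 4. The difference between the libraries was not tested, since there is 1 library of each.

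**Figure D1:**
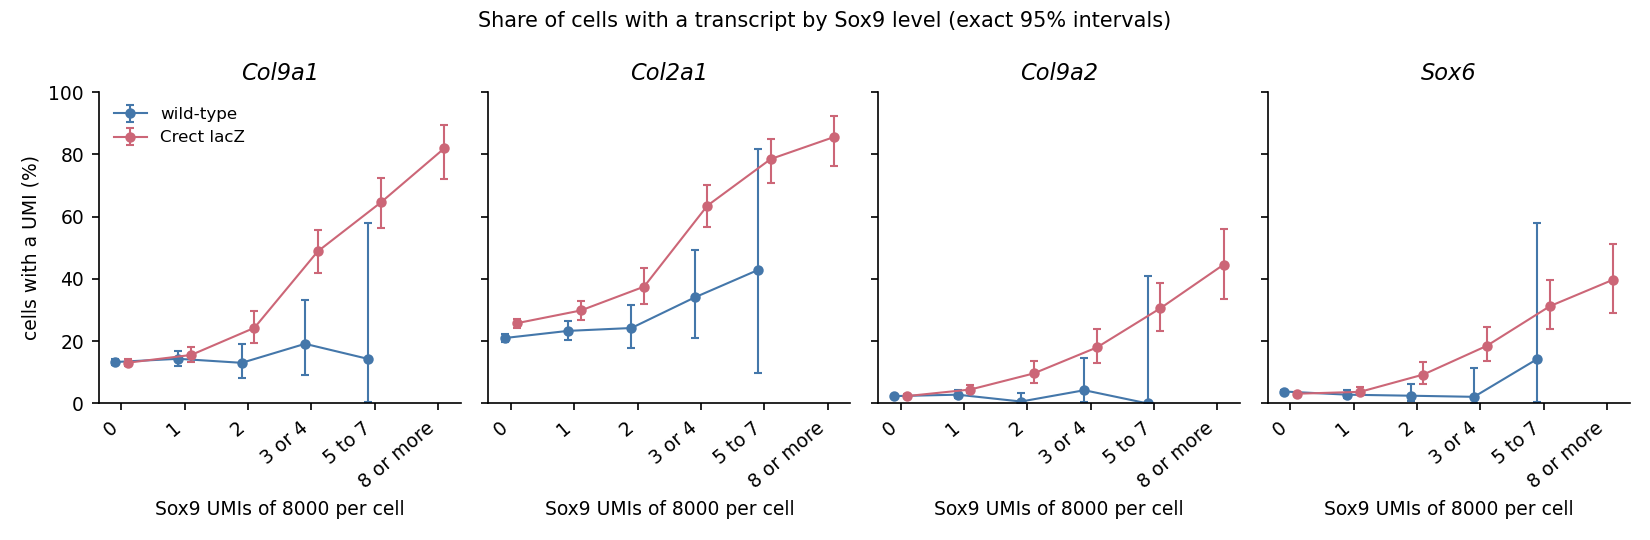
Share of cells (percent, vertical axis) with a UMI of Col9a1, Col2a1, Col9a2 or Sox6 at each level of Sox9 (horizontal axis). Levels are UMIs per cell after thinning to 8000. The cells are within the limits on Epcam, Cdh5, Kdr and Sox10 and have a UMI of Prrx1, Prrx2 or Twist1. Bars are exact 95% Clopper-Pearson intervals for counting error. All 4 Crect lacZ curves climb with Sox9, Col9a1 to 81.9% and Col9a2 to 44.6%. The wild-type points for Col9a1 stay between 13.0% and 19.1%, and those for Col2a1 go from 21.0% to 42.9% (3 of 7 cells). No wild-type cell reached 8 UMIs.

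Among cartilage matrix genes, those of type II and type IX collagen were higher in the selected cells, and most others were not called. Col2a1 stood at 175 CPM in selected and 37.6 CPM in Sox9-negative cells of Crect lacZ, 4.66-fold higher (95% Poisson interval 4.37 to 4.98, counting error only). In wild-type it stood at 46.9 against 27.5 CPM, 1.71-fold (1.24 to 2.29). Both libraries were higher in the selected cells, by a larger factor in Crect lacZ. Col9a2 was at 38.6 against 2.74 CPM in Crect lacZ, 14.1-fold (11.6 to 17.1), and at 5.21 against 2.74 CPM in wild-type, 1.90-fold on 5 UMIs (0.610 to 4.52). Col9a3 was at 44.8 against 5.18 CPM in Crect lacZ, 8.63-fold (7.40 to 10.1), and at 11.5 against 4.77 CPM in wild-type, 2.40-fold (1.19 to 4.35). Only 9 of the 53 selected wild-type cells had a Col9a3 UMI. The 4 wild-type cells of a small group led by ectodermal genes, described below, held 4 of these UMIs (86.7 CPM). The wild-type fold without that group was not tested. The last of the called matrix genes was P4ha3, a subunit of a collagen prolyl hydroxylase, at 32.2 against 12.3 CPM in Crect lacZ and 17.7 against 11.8 CPM in wild-type. Col11a1, of the collagen that nucleates the fibril, was 1.42-fold higher in Crect lacZ (1.25 to 1.61) and 1.66-fold in wild-type (1.22 to 2.20), under the 2-fold limit for a call. Matn4, a matrix linker protein of early cartilage, had 21 UMIs in the selected Crect lacZ cells (2.21 against 0.150 CPM) and none in wild-type, too few for the test.

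Calls were made with edgeR's quasi-likelihood test on UMIs summed per library and class, 4 sums with the library as a block, and required a Benjamini-Hochberg adjusted p under 0.05, a fold of 2 or more and the same direction in both libraries. The cells were picked on 2 genes, so genes that vary with those among cells can differ by that choice, and the fit had 1 residual degree of freedom with the spread taken from all genes together, so an adjusted p here says little on whether 1 given gene behaved alike in the 2 libraries. In this comparison 170 of 14045 genes were called higher (1.21%) and 233 lower (1.66%). At an unadjusted p under 0.05 edgeR gave 1067 of the 14045 higher and 1022 lower. At an adjusted p under 0.05 with no fold limit it gave 1006. Of 33 cartilage matrix genes 21 could be tested, 4 were higher and 0 lower (at an unadjusted p under 0.05, 8 and 1 with edgeR and 6 and 0 with DESeq2), with a median log2 change of 0.34 beside 0.01 over all genes tested. The adjusted p was 7.17e-56 for Col2a1 (log2 fold change 1.81, SE 0.11), 5.92e-32 for Col9a2 (3.16, SE 0.26) and 1.87e-09 for P4ha3 (1.18, SE 0.18). Without the library term edgeR called no gene (lowest adjusted p 0.0609, with 485 higher and 431 lower at an unadjusted p under 0.05), and DESeq2 with the term called 68 higher and 78 lower. With DESeq2 Col2a1 (adjusted p 0.648) and P4ha3 (adjusted p 0.0589) were not called, while Col9a2 (1.87e-05) and Col9a3 (8.92e-07) were. With the stricter limits, which left 5 wild-type cells, Col9a2 (log2 3.90, edgeR adjusted p 6.08e-10) and Col9a3 (3.30, 7.01e-10) lost their call because the wild-type library did not share the direction, as did Col9a2 with cells matched on depth (3.24, 2.68e-05). Taking each library alone and asking for a Poisson interval beyond 2-fold, 196 genes were higher (1.4%) and 168 lower (1.2%) in Crect lacZ, and 52 higher (0.37%) and 29 lower (0.206%) in wild-type, where the selected cells held only 959539 UMIs against 9519381. Of the 196, 17 were also past 2-fold in wild-type, 57 had a wild-type interval beyond 1 in the same direction and 138 an interval that included 1. Of the matrix genes, 0 were past 2-fold in the wild-type library by this measure and 4 were in Crect lacZ.

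Of 23 chondrogenic and skeletal transcription factors tested, 7 were called higher and 2 lower, with a median log2 change of 0.12. Sox6, the partner of Sox9, was at 38.0 against 4.17 CPM in Crect lacZ, 9.12-fold higher (7.69 to 10.8). In wild-type Sox6 was level, at 5.21 against 5.11 CPM, 1.02-fold (0.329 to 2.40). Its call by edgeR thus rested on the Crect lacZ library, and DESeq2 did not make it (adjusted p 0.9995). With stricter or looser limits, cells matched on depth, the same limits on both classes or no doublets, the log2 change of Sox6 stayed between 2.07 and 3.19 with an edgeR adjusted p of 0.000157 or less, but the wild-type library no longer had the same direction, so the call was lost. Sox5, the other partner, was at 53.4 against 17.6 CPM in Crect lacZ (3.04-fold, 2.72 to 3.38) and at 39.6 against 24.3 CPM in wild-type (1.63-fold, 1.15 to 2.25). Pax9, a paired-box factor of the facial and axial skeleton, was among the most abundant, at 336 against 44.2 CPM in Crect lacZ and 78.2 against 25.5 CPM in wild-type. Foxc1, a forkhead factor needed for skull and cartilage development, was 7.95-fold higher in Crect lacZ (7.04 to 9.0) and 3.74-fold in wild-type (2.11 to 6.17). Its relative Foxc2 went the other way in size, 3.26-fold in Crect lacZ (2.52 to 4.2) and 11.1-fold in wild-type (6.58 to 17.9). The edgeR call of Foxc2 was lost with the stricter limits (log2 1.68, adjusted p 0.543), and its log2 change went from 2.29 to 1.29 with cells matched on depth. Barx1, a homeobox factor of facial mesenchyme, was higher in both, 5.12-fold (4.36 to 6.02) and 4.95-fold (2.32 to 9.37).

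Runx1 was also called higher by edgeR, though not by DESeq2 (adjusted p 0.0589) or with cells matched on depth (edgeR adjusted p 0.331), and its values differed by library: 10.6 against 8.47 CPM in Crect lacZ (1.25-fold, 0.999 to 1.56) and 53.2 against 10.5 CPM in wild-type (5.07-fold, 3.74 to 6.74). A small group of 14 selected cells led by ectodermal genes, described below, held Runx1 at 241 CPM, and the other selected cells at 7.48 CPM. The 2 factors called lower were Pax1, a paired-box factor that acts with Pax9 in the sclerotome, and Runx3. Pax1 was at 2.10 against 16.9 CPM in Crect lacZ, 8.02-fold lower (5.16 to 13.2), and at 11.5 against 16.6 CPM in wild-type, 1.45-fold lower (0.808 to 2.91). Runx3, a runt-domain factor, was at 2.42 against 5.92 CPM and 1.04 against 3.86 CPM, and DESeq2 did not call it (adjusted p 0.8598). Runx2, the master factor of bone, was not called (15.9 against 35.1 CPM in Crect lacZ, 34.4 against 41.1 CPM in wild-type). Of 15 perichondrium and bone genes tested none was higher (0 at an unadjusted p under 0.05 with edgeR or DESeq2), and 7 with edgeR and 4 with DESeq2 were lower at that unadjusted p, with a median log2 change of -0.46. Of these 5 had an edgeR adjusted p under 0.05, and 1 passed the fold limit, Col1a1 of type I collagen, at 56.3 against 122 CPM in Crect lacZ and 63.6 against 107 CPM in wild-type.

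The promoters of 19 genes, not all of them called higher, were searched for the words ACAAAG and ACAATG. These are short forms of the sequence that SOX proteins are known to bind. Both strands were read in a window from 250 bases before to 50 bases after each RefSeq start in build GRCm38.p6. Over all 32851 windows of this length, 28.6% held a word. The 4 windows printed here are those of Col9a2, the gene with the largest cartilage matrix fold, of Sox6 at the one of its 6 starts with the most words, and of Isl2 and Flrt2, which stood among the largest changes. Capitals mark the words, and a word on the opposite strand reads CTTTGT or CATTGT.
Col9a2, chr4:121039316-121039615, plus strand: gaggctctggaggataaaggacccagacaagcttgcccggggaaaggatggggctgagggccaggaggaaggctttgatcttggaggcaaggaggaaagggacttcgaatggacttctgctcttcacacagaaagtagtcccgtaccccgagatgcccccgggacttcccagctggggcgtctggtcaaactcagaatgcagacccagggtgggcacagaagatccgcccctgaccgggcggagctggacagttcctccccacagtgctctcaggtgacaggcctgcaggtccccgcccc
Sox6, chr7:115995037-115995336, minus strand: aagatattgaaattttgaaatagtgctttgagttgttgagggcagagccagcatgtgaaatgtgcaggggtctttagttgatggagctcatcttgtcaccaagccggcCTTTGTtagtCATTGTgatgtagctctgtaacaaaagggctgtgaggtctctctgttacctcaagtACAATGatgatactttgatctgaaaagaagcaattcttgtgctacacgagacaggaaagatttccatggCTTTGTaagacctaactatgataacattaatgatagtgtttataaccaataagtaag
Isl2, chr9:55540899-55541198, plus strand: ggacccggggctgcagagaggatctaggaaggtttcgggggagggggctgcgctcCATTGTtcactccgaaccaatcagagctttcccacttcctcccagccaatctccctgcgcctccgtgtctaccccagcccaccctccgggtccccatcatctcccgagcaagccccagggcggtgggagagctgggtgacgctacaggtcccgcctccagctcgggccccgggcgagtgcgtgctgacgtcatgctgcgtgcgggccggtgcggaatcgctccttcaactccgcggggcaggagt
Flrt2, chr12:95691976-95692275, plus strand: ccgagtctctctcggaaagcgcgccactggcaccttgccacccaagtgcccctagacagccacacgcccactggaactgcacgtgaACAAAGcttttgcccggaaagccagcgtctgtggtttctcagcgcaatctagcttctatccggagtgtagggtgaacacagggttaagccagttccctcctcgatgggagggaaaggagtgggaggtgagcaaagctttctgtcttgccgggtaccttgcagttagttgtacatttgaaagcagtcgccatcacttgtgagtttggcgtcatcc
The Col9a2 window held no word, the Sox6 window 4, and those of Isl2 and Flrt2 1 each. The Pax9, Dkk1 and Sox5 windows also held 1 each. Those of Col9a1 (2 starts), Col11a1, Col11a2, Acan, Matn4 (2 starts), Foxc1 and Mecom (2 starts) held none. The words are a description of these windows, not of binding, and their absence says only that the letters are not there. Of 19 genes looked up, 14 had an entry.

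The largest changes over all genes, by the log2 fold change of genes with a mean of 20 CPM or more, were mostly in genes outside the cartilage matrix list. That list gave Col2a1 (log2 1.81) alone among the 10 largest. The limit on the mean left out Col9a2 (3.16) and Col9a3 (2.64) of that list, and Sox6 (2.49), whose log2 changes were larger than that of Col2a1. Isl2, a LIM-homeobox factor best known from motor neurons, was at 62.2 against 4.28 CPM in Crect lacZ, 14.5-fold (12.4 to 17.0). In wild-type Isl2 was at 10.4 against 3.77 CPM, 2.76-fold (1.31 to 5.17). Lgr5, a receptor for R-spondins, was at 123 against 11.6 CPM in Crect lacZ (10.6-fold, 9.60 to 11.7) and 38.6 against 11.3 CPM in wild-type (3.40-fold, 2.38 to 4.73). Flrt2, a membrane protein that binds Unc5 receptors and Fgf receptors, was at 365 against 38.3 CPM (9.53-fold, 9.02 to 10.1) and 81.3 against 25.7 CPM (3.16-fold, 2.49 to 3.97). Its adjusted p was 2.50e-138 with edgeR (log2 2.72, SE 0.11) and 0.0602 with DESeq2, which did not call it. Mecom, a zinc-finger factor, was at 227 against 30.8 CPM and 73.0 against 23.6 CPM. Foxf1, a forkhead factor and target of hedgehog signalling, was at 79.1 against 11.9 CPM (6.65-fold, 5.98 to 7.41) and 18.8 against 7.76 CPM (2.42-fold, 1.42 to 3.86). For these 5 genes the wild-type fold was the smaller. Prss23, a secreted serine protease, was 4.31-fold higher in Crect lacZ (3.88 to 4.78) and 5.25-fold in wild-type (3.77 to 7.13), and Pcdh7, a protocadherin, 3.65-fold (3.22 to 4.14) and 2.66-fold (1.92 to 3.59). Of the genes past 2-fold higher in Crect lacZ, 68 had a wild-type interval that ended below the Crect lacZ interval.

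**Figure D2:**
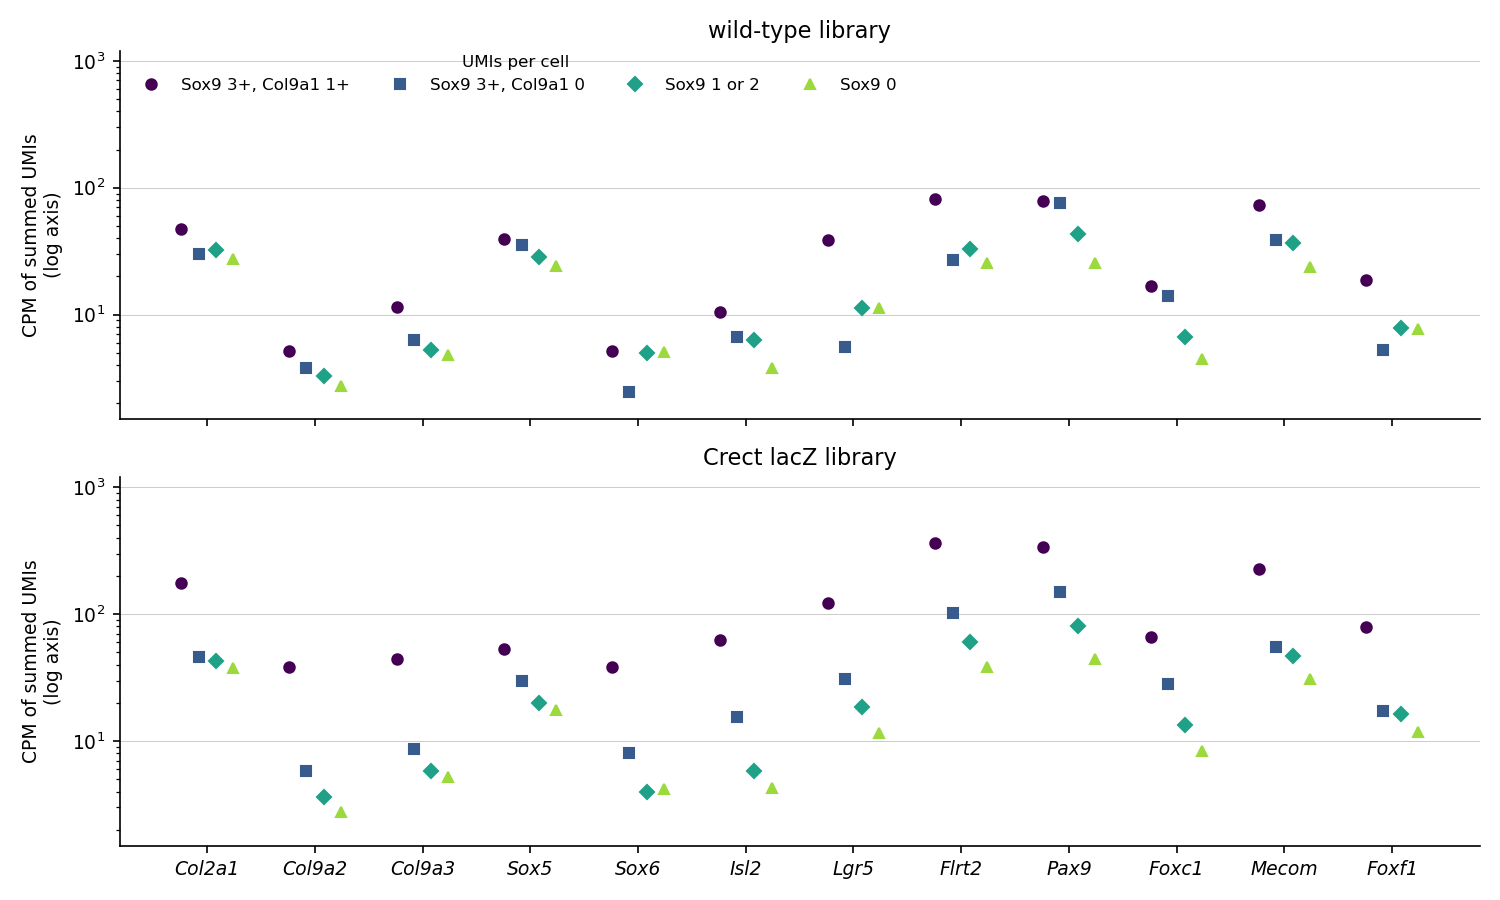
CPM of summed UMIs (vertical axis, log scale) of 12 genes called higher, in 4 classes of cells by their UMIs of Sox9 and Col9a1, in the wild-type (top) and Crect lacZ (bottom) library; each point is 1 sum with no replicate. In Crect lacZ the cells with both genes lie above the other classes for all 12, as for Flrt2 at 365 CPM, while in wild-type Pax9 is level in the cells with and without Col9a1 (78.2 and 75.8 CPM) and Sox6 is level with the Sox9-negative cells.

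**Figure D3:**
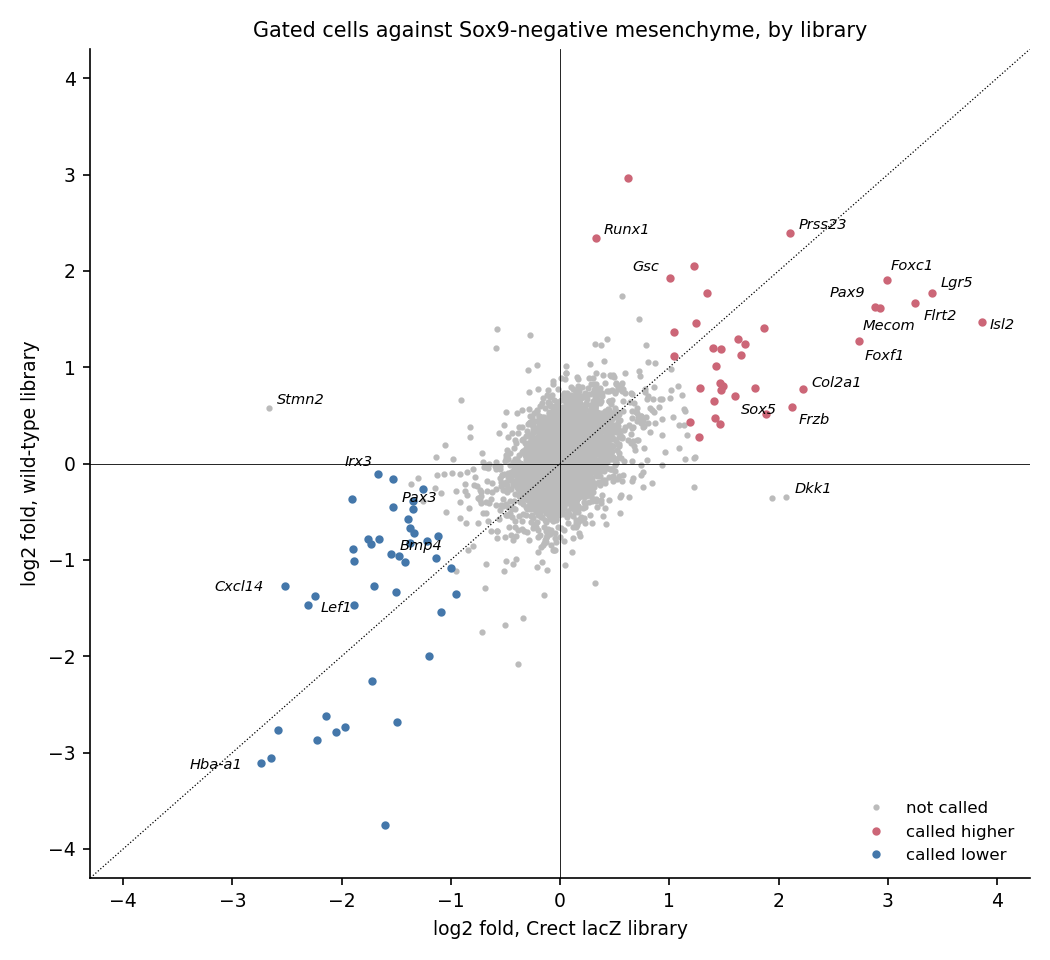
Fold of the selected cells against Sox9-negative mesenchyme on a log2 scale in the Crect lacZ (horizontal) and wild-type (vertical) library, for 5928 tested genes with a mean of 20 CPM or more; red and blue points are genes called higher (37) and lower (42), and the dotted line marks equal folds. Isl2, Lgr5, Flrt2 and Col2a1 lie below the line, Prss23, Gsc and Runx1 above it, and Stmn2 and Dkk1 have opposite signs in the 2 libraries.

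Among genes of tendon, joint and connective tissue, 4 of 17 tested were higher and 3 lower. Gdf6, a Bmp-family ligand of joints and the skull, was at 58.6 against 7.51 CPM in Crect lacZ, 7.80-fold (6.85 to 8.89), and at 8.34 against 3.65 CPM in wild-type on 8 UMIs (2.28-fold, 0.974 to 4.57). Scx, the tendon factor, was higher in both libraries, 2.49-fold (2.0 to 3.08) and 2.70-fold (1.43 to 4.69), as was Osr2, a zinc-finger factor of the palate, at 2.37-fold (2.12 to 2.65) and 2.75-fold (1.90 to 3.88). The last was Erg, an Ets factor of articular cartilage and endothelium, at 7.35 against 2.93 CPM in Crect lacZ and on 3 UMIs in wild-type. Lower were the small proteoglycan genes Lum (2.30-fold in Crect lacZ and 3.99-fold in wild-type) and Dcn, and Col6a1. Of 12 general mesenchyme genes not used by the rule, Lum and Zeb2 were lower and none higher. Zeb2, a factor of neural crest and mesenchyme, was 2.0-fold lower in Crect lacZ (1.83 to 2.19) and 2.12-fold in wild-type (1.69 to 2.70).

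Wnt pathway genes were called in both directions. Of 43 Wnt pathway genes tested, 4 were higher and 8 lower, with a median log2 change of 0.18. The 4 were the receptor gene Lgr5 and the secreted Wnt inhibitors Frzb, Sfrp1 and Sfrp2. Frzb, which was first isolated from cartilage, was at 273 against 62.5 CPM in Crect lacZ (4.37-fold, 4.15 to 4.60) and 95.9 against 63.8 CPM in wild-type (1.5-fold, 1.21 to 1.85), and DESeq2 did not call it (adjusted p 0.958). Sfrp2 was at 242 against 74.8 CPM and 134 against 57.03 CPM, and Sfrp1 at 146 against 53.0 CPM and 54.2 against 40.9 CPM. Lower were Lef1 and Tcf7, nuclear partners of beta-catenin, the feedback inhibitors Axin2, Nkd1 and Nkd2, the secreted inhibitor Notum, the target Sp5 and the ligand Rspo1. Lef1 was 4.75-fold lower in Crect lacZ (35.7 against 169.6 CPM, 4.26 to 5.31) and 2.59-fold in wild-type (91.7 against 237 CPM, 2.10 to 3.23). Nkd1, a Wnt feedback inhibitor, was 3.25-fold lower (2.95 to 3.58) and 2.41-fold lower (1.88 to 3.13), and Axin2, another, 2.54-fold (2.19 to 2.95) and 1.39-fold (1.05 to 1.87).

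Dkk1, a secreted inhibitor of the Wnt coreceptor, could not be called because its libraries disagreed. It stood at a higher level than Frzb, Sfrp1 and Sfrp2 in selected Crect lacZ cells, at 465 against 111 CPM, 4.19-fold higher (4.03 to 4.36). In wild-type Dkk1 was at 127 against 162 CPM, 0.784-fold (0.651 to 0.937). Its level in wild-type cells with Sox9 but no Col9a1 was 59.1 CPM and in the Crect lacZ cells of that kind 95.9 CPM. No test of the difference between the libraries was possible.

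Of 32 Bmp and Tgf-beta genes tested, 2 were higher and 2 lower. Bmp4, a ligand of the facial prominences, was at 60.5 against 177 CPM in Crect lacZ, 2.92-fold lower (2.69 to 3.18), and at 93.8 against 179.9 CPM in wild-type, 1.92-fold lower (1.56 to 2.39). Bmp5 was the other gene called lower. Nog, a secreted Bmp inhibitor of early cartilage, was at 19.3 against 3.66 CPM in Crect lacZ, 5.28-fold higher (4.29 to 6.49), and on 6 UMIs in wild-type, 1.60-fold (0.580 to 3.52). Bmpr1b, a Bmp receptor of cartilage condensations, was at 5.67 against 2.09 CPM and 5.21 against 3.71 CPM. Of 22 Fgf genes 1 was called higher, Etv5, an Ets factor known to follow Fgf signalling, at 74.3 against 24.0 CPM (3.09-fold, 2.82 to 3.39) and 51.1 against 20.8 CPM (2.45-fold, 1.81 to 3.26). Fgfr3, the Fgf receptor of proliferating chondrocytes, was at 9.56 against 1.52 CPM in Crect lacZ, 6.28-fold (4.61 to 8.58), and on 1 UMI in wild-type, so it was not called. Of 16 hedgehog genes, Foxf1 and Foxd2 were higher and none lower. Ptch1, the hedgehog receptor and target, was at 69.3 against 51.6 CPM in Crect lacZ and 52.1 against 53.7 CPM in wild-type, and Gli1, another target, at 15.7 against 15.4 CPM and 12.5 against 12.5 CPM, neither called.

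Genes that pattern the face separated the selected cells from Sox9-negative mesenchyme in both directions. Of 14 nasal patterning genes 2 were higher and 3 lower, and of 16 maxillary genes 4 were higher and 3 lower. Pax3, of the nasal and frontal mesenchyme, was at 45.1 against 130.3 CPM in Crect lacZ, 2.89-fold lower (2.62 to 3.19), and at 154 against 210.1 CPM in wild-type, 1.36-fold lower (1.16 to 1.61). Hey2, a Notch target, was lower in both libraries, 6.62-fold (4.82 to 9.35) and 6.74-fold (2.63 to 24.8). Irx5 and Irx3, Iroquois homeobox factors, were at 16.8 against 62.9 CPM and 29.0 against 92.2 CPM in Crect lacZ, but in wild-type Irx5 was 1.29-fold lower (0.986 to 1.72) and Irx3 1.08-fold (0.874 to 1.35), and DESeq2 did not call Irx3 (adjusted p 0.9995). Meis2, a homeobox cofactor needed for crest-derived cartilage, was at 511 against 185 CPM (2.77-fold, 2.67 to 2.87) and 373 against 220.2 CPM (1.69-fold, 1.52 to 1.88). Gsc, the homeobox factor goosecoid, was at 74.2 against 37.0 CPM in Crect lacZ (2.01-fold, 1.84 to 2.19) and 115 against 30.1 CPM in wild-type (3.81-fold, 3.11 to 4.61), a call lost with the stricter limits on Sox9 and Col9a1 (edgeR adjusted p 0.99998). After thinning to 8000 UMIs, 78.5% of selected Crect lacZ cells had a Pax9 UMI against 19.4% of Sox9-negative cells, 43.8% had Foxf1 against 7.51%, and 19.1% had Pax3 against 53.3%. In selected wild-type cells 30% had Pax9, 12.0% Foxf1 and 44.0% Pax3.

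Guidance and adhesion genes included 5 of 27 that were higher and 1 that was lower. Epha3, an ephrin receptor, was at 161 against 51.1 CPM (3.16-fold, 2.96 to 3.36) and 119.9 against 55.0 CPM (2.18-fold, 1.79 to 2.63), and Nrp1, a semaphorin and Vegf coreceptor, at 54.5 against 26.4 CPM and 38.6 against 14.97 CPM. Robo2, a Slit receptor, was lower, at 15.9 against 41.1 CPM and 37.5 against 66.4 CPM. The chemokine gene Cxcl14 was 5.73-fold lower in Crect lacZ (5.18 to 6.37) and 2.42-fold in wild-type (2.05 to 2.88), and Ptn, a heparin-binding growth factor, 2.33-fold (2.25 to 2.41) and 1.75-fold (1.61 to 1.89). Of 42 S phase genes and 52 genes of G2 and mitosis none was called by edgeR, and none was past 2-fold by its Poisson interval in either library. At an unadjusted p under 0.05 edgeR gave 17 S phase genes lower and 0 higher, and 35 G2 and mitosis genes higher and 0 lower, and DESeq2 gave 8 and 20. Of these 7 S phase and 21 mitosis genes had an edgeR adjusted p under 0.05, below the fold limit, and 1 and 3 did with DESeq2. Over all 14045 genes tested, edgeR gave 1067 higher and 1022 lower at that unadjusted p, and 1006 at that adjusted p.

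Among the 233 genes called lower were genes of blood and vessels. All 9 erythroid genes tested and 9 of 10 endothelial genes were called lower, and the rule limits Cdh5 and Kdr in the selected cells but not in the comparison cells. Summed erythroid genes were at 1780.2 CPM in selected and 7285.5 CPM in Sox9-negative cells of Crect lacZ, and at 3635.1 and 21990.0 CPM in wild-type. Hba-a1, an alpha globin, was 6.69-fold lower in Crect lacZ (6.396 to 6.99) and 8.62-fold in wild-type (7.83 to 9.52), and Hba-a2, Hba-x, Hbb-bh1, Hbb-bt, Hbb-bs, Car2 and the platelet gene Pf4 filled the largest lower changes with Cd34 of endothelium and Cxcl14. With the same limits on Cdh5, Kdr and Sox10 placed on the comparison cells, 176 genes were higher and 134 lower, which moves the share of calls that are higher from 42.2% to 56.8%. Under those limits Pf4 went from a log2 change of -2.67 to -0.10 (edgeR adjusted p 0.969) and was no longer called, nor was the endothelial gene Egfl7, which went from -1.17 to -0.10, and Cd34 went from -2.19 to -1.22. Summed endothelial markers were at 65.9 and 220.7 CPM in Crect lacZ, neuron markers at 62.8 and 178.4 CPM, ectoderm markers at 51.7 and 42.3 CPM, crest glia markers at 35.6 and 28.6 CPM and macrophage and platelet markers at 33.5 and 52.6 CPM. In wild-type the same sums were 43.8 and 154.7 CPM, 195.9 and 200.4 CPM, 73.0 and 33.2 CPM, 21.9 and 24.2 CPM, and 20.8 and 131.0 CPM. Of 5 crest glia genes tested 1 was called higher, Erbb3, the neuregulin receptor, at 14.8 against 1.28 CPM in Crect lacZ and on 1 UMI in wild-type, while Fabp7 had 4 UMIs and 0. What part these other cell types had in single genes was not tested.

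The most similar cells were those with 3 or more Sox9 UMIs but no Col9a1 UMI, 363 in Crect lacZ and 157 in wild-type. Their Sox9 level was 237 CPM in Crect lacZ against 465 CPM in the selected cells, and 215 against 220 CPM in wild-type, so in Crect lacZ the classes differ in Sox9 as well. Of 11495 genes tested with edgeR, 70 were higher in the selected cells (0.609%) and 39 lower (0.339%). The cartilage genes Col2a1, Col9a2, Col9a3 and Sox6 were again higher. Col2a1 was 3.79-fold higher in Crect lacZ and 1.55-fold in wild-type (edgeR adjusted p 3.73e-05), and Sox6 4.70-fold and 2.14-fold (edgeR adjusted p 4.56e-05), the latter on 5 UMIs with an interval of 0.535 to 7.83. DESeq2 called 11 genes higher and 9 lower. Col2a1 (adjusted p 0.99999) and Col9a3 (adjusted p 0.0865) were not among them, and for Col9a2 and Sox6 DESeq2 gave no adjusted p. Flrt2 was 3.59-fold higher in Crect lacZ and 3.03-fold in wild-type (adjusted p 2.66e-08), and Frzb 3.31-fold and 2.62-fold (adjusted p 1.28e-07). Lgr5 was 4.00-fold and 6.93-fold higher, Epha3 2.72-fold and 3.41-fold, Foxf1 4.55-fold and 3.59-fold and Dkk1 4.84-fold and 2.15-fold. Pax9 was 2.25-fold higher in Crect lacZ and 1.03-fold in wild-type, and was not called.

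Against those Sox9-positive cells the nasal factors Pax3 and Pax7 and the homeobox factor Gsc were lower in the selected cells. Gsc was at 74.2 against 188 CPM in Crect lacZ and 115 against 244 CPM in wild-type (adjusted p 5.96e-07). Pax7, of nasal mesenchyme, was at 12.9 against 57.1 CPM and 55.2 against 106 CPM. Gsc had been higher than in Sox9-negative mesenchyme, so its level was in between. Igf1, a growth factor, was at 63.0 against 157 CPM and 96.9 against 179.9 CPM, and Rarb, a retinoic acid receptor, at 28.4 against 75.2 CPM and 58.4 against 98.5 CPM.

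The selected cells were not uniform. They were clustered on variable genes (resolution 0.5) into 7 sub-clusters, which are numbered by size and named by their leading genes, as a description of the same cells and with no test. With both libraries summed, sub-clusters 1, 2, 3 and 6 were highest in Col9a2, Sox6 and Sox9. They held 386 of the 530 Crect lacZ cells (72.8%) and 24 of the 53 wild-type cells (45.3%). In the Crect lacZ cells of these 4, Col2a1 was at 244 CPM, Col9a2 at 56.7 CPM and Sox6 at 59.8 CPM. In their wild-type cells Col2a1 was at 55.8 CPM, Col9a2 at 8.92 CPM (4 UMIs) and Sox6 at 4.46 CPM (2 UMIs). The wild-type cells of sub-clusters 4, 5 and 7 were lower in Col2a1 (39.1 CPM) and Col9a2 (1 UMI). They were higher in Sox9 (246 against 190 CPM) and Col9a1 (106 against 89.2 CPM). Col9a3 (13.7 against 8.92 CPM) and Sox6 (5.87 CPM, 3 UMIs) were also higher there. In wild-type cells the split thus did not hold for Sox9, and Col9a2 and Sox6 rested on few UMIs. Sub-clusters 1, 2, 3 and 6 differed among themselves in other genes. Sub-cluster 1 was led by Hist1h2bc, Tspan15 and Sfrp2 (457 CPM, against 190 CPM in the other selected cells), with Top2a at 63.8 CPM. Sub-cluster 2 was led by Pex5l, Pdlim3 and Gdf6 (177 CPM against 30.8 CPM), 3 by the mitotic genes Nusap1, Cdc20 and Ccnb1 and 6 by Ptcra, Epha5 and S phase histone genes, with Col2a1 highest in 6, at 338 CPM.

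The other 3 sub-clusters were lower in Col9a2 and Sox6 with both libraries summed. Sub-cluster 4 (73 Crect lacZ and 16 wild-type cells) was led by Pax7, Gsc, Pax3 and Osr1, with Pax3 at 167 CPM and Col2a1 at 44.1 CPM. Sub-cluster 5 (61 and 9 cells) was led by C1qb, Asb4, Sostdc1 and Lhx6, so that macrophage complement genes stood beside genes of maxillary mesenchyme. C1qb was at 45.8 CPM there against 0.447 CPM in the other selected cells. Sub-cluster 7 (10 and 4 cells) was led by Dkk4, Aldh1a3 and Sfn, genes of ectoderm, although the rule limits Epcam. Its type II and type IX collagen genes were nevertheless high, with Col2a1 at 181 CPM, level with sub-cluster 3 at 182 CPM, Col9a3 at 57.2 CPM and Col9a1 at 229 CPM. Sfn was at 406 CPM against 10.5 CPM, and Aldh1a3, a retinoic acid synthesis enzyme, at 539.8 CPM against 11.8 CPM. Aldh1a3 was the 1 gene of 17 tested in the retinoic acid list, and 1 of the 2 nasal genes, that edgeR called higher in all selected cells, at 27.8 against 12.7 CPM in Crect lacZ and 26.1 against 6.59 CPM in wild-type. Scrublet marked 11 of the 530 and 3 of the 53 selected cells as doublets. Cells of sub-clusters 4, 5 and 7 in Crect lacZ were deeper, with a median of 24348 UMIs against 13968 in the other 4, and the part of depth in their passing the rule was not tested.

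**Figure D4:**
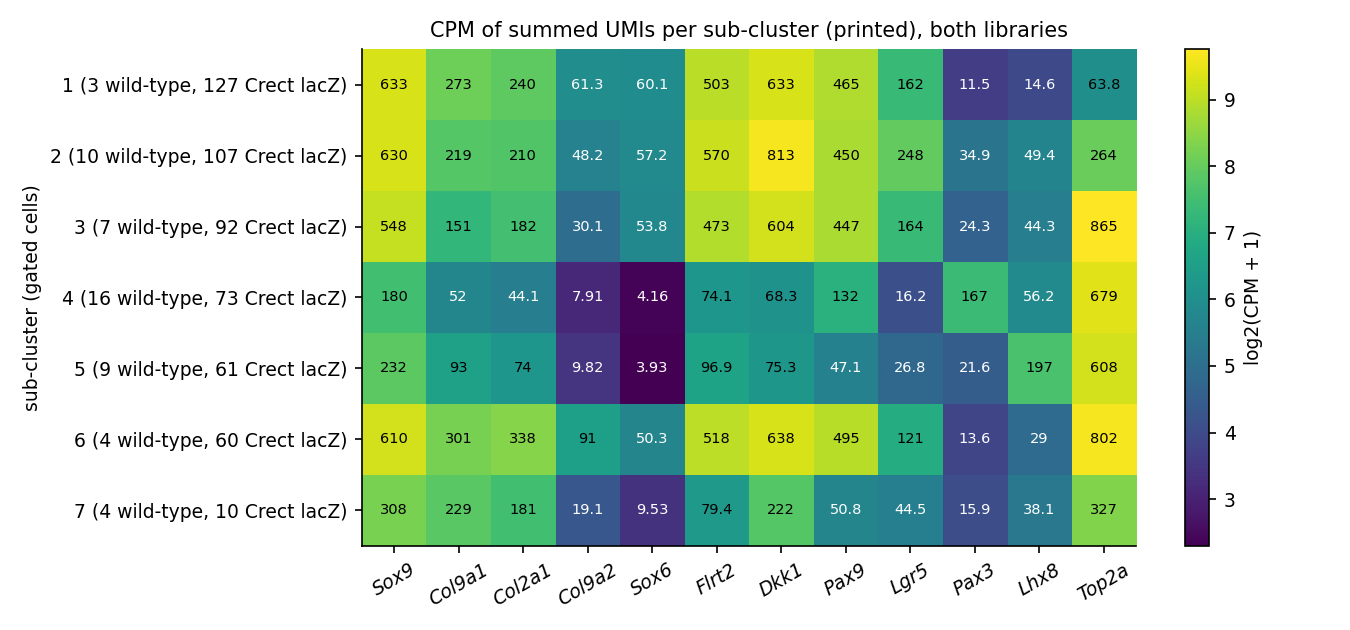
CPM of summed UMIs (printed in each field, colour is log2 of CPM plus 1) of 12 genes in the 7 sub-clusters of selected cells, both libraries together, with the number of cells from each library at the left. Sub-clusters 1, 2, 3 and 6 are the highest in Sox9, Col9a2, Sox6, Flrt2, Dkk1 and Pax9, while Col2a1 in 7 (181 CPM) is level with 3 (182 CPM), sub-cluster 4 is highest in Pax3 (167 CPM), 5 in Lhx8 (197 CPM), and Top2a separates 1 (63.8 CPM) from 3 (865 CPM).

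Col2a1 also varied between single cells. Selected Crect lacZ cells had a median of 2 Col2a1 UMIs (quartiles 1 and 5, highest 16), and 85.8% had at least 1. Selected wild-type cells had a median of 0 (quartiles 0 and 1, highest 5), and 49.1% had at least 1, against 31.4% of Sox9-negative wild-type cells. Across 498 Crect lacZ cells thinned to 8000 UMIs, Spearman's rho of Col2a1 was highest, of 7207 genes, with Sox9 (0.352), Flrt2 (0.345) and Col9a1 (0.336). Then came Fstl1, Meis2, Col9a3, Mecom, Col9a2, Plagl1 and Dkk1, down to 0.2502. It was lowest with Pax3 (-0.26975), followed by Tuba1a, Tmsb10, Gapdh, Crabp2, Lgals1, Glipr2, Pdlim7, Epha4 and Tubb5. Thinned to 5000 UMIs (528 cells, 5665 genes), Mecom was highest (0.298) ahead of Sox9 (0.256), Col9a3 fell to 0.132, Pax3 was at -0.149 and Tmsb10 was lowest (-0.225), so the order depended on the depth. These cells share a library and a selection on Sox9 and Col9a1, the counts are sparse, and the values are a description. Fstl1 encodes a secreted follistatin-like protein, and Tuba1a and Tubb5 encode tubulins.

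Between the selected cells of the 2 libraries no test was possible. Of 9819 genes with 50 or more UMIs, 52 were past 2-fold higher (0.53%) and 64 lower (0.652%) in Crect lacZ by their Poisson intervals. With ratios scaled by TMM the counts were 68 higher and 39 lower, so the balance of the directions turned with the scaling. Of the genes past 2-fold without that scaling, 16 of the 52 and 23 of the 64 were also past 2-fold between the Sox9-negative cells of the libraries. The share of all 9819 genes past 2-fold between the Sox9-negative cells was not counted. Whether these overlaps are large or small thus cannot be told. Col9a2, Sox6 and Col2a1 were among the rest of the 52. Col9a2 was 7.40-fold higher in selected Crect lacZ cells (3.14 to 22.9) and 1.001-fold in Sox9-negative cells (0.8003 to 1.25). Sox6 was 7.30-fold higher (3.10 to 22.6) and 0.816-fold in Sox9-negative cells (0.686 to 0.968). Col2a1 was 3.74-fold higher (2.78 to 5.15) and 1.37-fold in Sox9-negative cells (1.28 to 1.46). Pax3 was 0.292-fold (0.242 to 0.355) and 0.620-fold (0.602 to 0.638).

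The 5 largest ratios down were Tagln, Stmn2, Hist1h1b, Hist1h1a and Hist1h1e. The linker histone genes were lower by like factors in Sox9-negative cells (Hist1h1b 0.113-fold in selected and 0.145-fold in Sox9-negative cells), while Tagln, an actin-binding protein gene, was 0.0461-fold (0.0238 to 0.0855) against 1.17-fold. Tagln was among the leading genes of sub-cluster 7, at 130.2 CPM against 0.984 CPM in the other selected cells. At the other end, Grk5, Entpd1, Gm10093, BC023719 and A930015D03Rik had no UMI in the selected wild-type cells. Gm10093 is a processed pseudogene, and BC023719 and A930015D03Rik are annotated antisense genes of chromosome 17, whose reads may be split with other copies or strands. For Gm10093 the ratio was 13.8-fold in Sox9-negative cells too.

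Of 6 sex-linked genes tested between the classes none was called by edgeR, with 0 at an unadjusted p under 0.05 by edgeR and 0 by DESeq2. The Cre and lacZ transgenes were not tested between the classes. In Crect lacZ, 45.8% of selected cells had UMIs of Y-linked genes without Xist and 19.6% had Xist alone, beside 47.5% and 21.8% of Sox9-negative cells. In wild-type the shares were 30.2% and 41.5% beside 33.9% and 36.5%. These shares thus differed more between the libraries than between the classes of a library, and Xist in selected cells was 0.554-fold in Crect lacZ (0.510 to 0.604) beside 0.648-fold in Sox9-negative cells (0.638 to 0.659). The Cre transgene had 6 UMIs in the 530 selected Crect lacZ cells, 0.630 CPM beside 0.639 CPM in Sox9-negative cells and 63.8 CPM in cells with 5 or more Epcam UMIs, and lacZ had 21 UMIs, 2.21 CPM beside 1.54 and 17.6 CPM.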

How the data were processed

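The libraries were prepared with the 10x Genomics 3' chemistry, and the UMI counts per gene and barcode were made by the authors with Cell Ranger 2.0 on mm10, per the submitters' processing notes. The deposited files hold raw counts of 7966 wild-type and 6894 Crect lacZ barcodes, with 126638790 and 127765199 UMIs in all. Whether doublets or low-quality cells were removed before deposit is not stated. The members, gene lists and tests were chosen with earlier results of these data known.

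UMIs were summed per library and class and tested with edgeR 4.0.16 (R 4.3.3) with TMM scaling, a filter on low counts and the library as a term. The 9 genes that define the classes were fitted but not reported as tests. P-values measure the spread between these sums only, and each genotype is 1 pool. Fold intervals within a library are exact Poisson intervals at 95%, which cover counting error only. DESeq2 1.42.0, scanpy 1.11.5, leidenalg 0.10.2 and scipy 1.17.1 were also used. On simulated data the test against Sox9-negative cells, run on 14054 genes, recovered 72% of 2-fold and 90% of 4-fold changes among 200 changed genes. The test against Sox9-positive cells without Col9a1, on 11502 genes, recovered 79% and 95%. Recovery by the full call, which adds the fold limit and the same direction in both libraries, was not tested.

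The genes named were those of the cartilage matrix and chondrogenic factor lists, the 2 largest called changes per direction in each other list, the 10 largest per direction over all genes (both at a mean of 20 CPM or more), the 5 largest library ratios each way with sex-linked genes and transgenes, and the 10 highest and lowest correlations with Col2a1. Other genes named were chosen after their values were seen. Alternatives were another tool, no filter, no library term, stricter and looser limits on Sox9 and Col9a1, cells matched on depth, the same limits on both classes, doublets removed, a mitochondrial limit of 5%, other scalings and thinning, and each library alone.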

Additional observations from a re-analysis of the deposited data

Results flagged for a closer look

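Of the genes past 2-fold in the Crect lacZ library, 3 had a wild-type interval wholly on the other side of 1 when the selected cells were set against Sox9-negative mesenchyme. Dkk1, the Wnt inhibitor, was 4.195-fold in Crect lacZ and 0.7841-fold in wild-type. Stmn2, a neuronal microtubule regulator, was 0.1575-fold in Crect lacZ (7.67 against 48.7 CPM) and 1.494-fold in wild-type (71.9 against 48.1 CPM). Rmst, a long noncoding RNA, was 0.2009-fold in Crect lacZ on 19 UMIs and 1.788-fold in wild-type on 16 UMIs. With 1 library of each genotype the difference between the libraries was not tested. Transgene reads in the selected Crect lacZ cells came to 6 UMIs of Cre and 21 UMIs of lacZ, above 3 UMIs, the limit that a count of 0 allows.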

How the results depend on the processing

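Against Sox9-negative mesenchyme, 170 genes were higher and 233 lower; DESeq2 gave 68 and 78, stricter limits on Sox9 and Col9a1 82 and 106, and cells matched on total UMIs 117 and 146. With the same limits on the comparison cells 134 were lower. Without the library term edgeR called 0 and 0 (485 and 431 at an unadjusted p under 0.05). Each library alone, by Poisson intervals beyond 2-fold, gave 52 to 196 higher and 29 to 168 lower. Against Sox9-positive cells without Col9a1, 70 were higher and 39 lower; DESeq2 gave 11 and 9, no filter on low counts gave 90 and 65, and no library term 0 and 0 (221 and 124 unadjusted). Single libraries gave 18 to 58 higher and 11 to 34 lower. Between libraries, stricter limits left 12 genes higher and TMM scaling gave 68 higher and 39 lower, against 52 and 64. The share of selected cells was 0.0632% (wild-type) and 4.13% (Crect lacZ) with stricter limits, 1.56% and 9.96% with looser ones and 0.154% and 4.40% after thinning to 8000 UMIs. The rank correlation of Flrt2 with Col2a1 fell from 0.345 to 0.221 on thinning to 5000 UMIs. The causes were not tested. No paired analysis was possible because each group has 1 library; the library term ties the classes of a library. The 53 wild-type cells limit what could be seen there: 5 UMIs each of Col9a2 and Sox6 carry their values.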
